A study of Mus musculus with 9 samples.

Results

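The 9 genes described here carry vitamin A from its dietary precursor to retinoic acid and its receptor. They were taken by name from the 46095 gene symbols of the count table: the carotenoid oxygenase Bco1, the retinoid carrier Rbp2, the esterifying enzyme Lrat, the retinal reductase Dhrs3, the retinal dehydrogenases Aldh1a1, Aldh1a2 and Aldh1a3, the repressor Isx and the receptor Rara. All 9 passed the filter on low counts and were among the 14593 genes tested. RNA was sequenced from intestinal epithelial cells (IECs) released from the colon with EDTA, in 4 libraries from Smad4 Vil-KO mice and 5 libraries from Smad4 Vil-KO;Setd2 Vil-KO mice (here called double knockout). Both groups carried the deletion of Smad4, which transmits TGF-β and BMP signals, and only the double knockout also that of Setd2, which trimethylates lysine 36 of histone H3. In both, Cre under the Villin promoter deleted the floxed alleles in the intestinal epithelium, on a C57BL/6j background, and cells of the colon outside the epithelium kept both genes. The treatment was the same in both: the carcinogen AOM (10 mg/kg) at 8 weeks of age and 1 course of the colitis-inducing agent DSS (2% in the drinking water), with cells taken at 10 days. Neither untreated mice nor mice with intact Smad4 were part of the comparison.

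Vitamin A enters the gut as retinyl esters or as carotenoids, which BCO1 cleaves into retinal. Enterocytes reduce retinal to retinol, hold both on RBP2, and esterify retinol by LRAT for export in chylomicrons, while ALDH1A enzymes oxidize retinal irreversibly to retinoic acid and DHRS3 turns retinal back into retinol. Retinoic acid bound to RARA switches target genes on, among them Isx, whose product represses Bco1 and closes a feedback loop on carotenoid uptake.

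The total count per library was 12487129 to 17120202, and 1 count was worth 0.0593 to 0.0793 CPM (counts relative to the library total, scaled with edgeR's TMM factors), the unit of the levels given here. Setd2, which differs between the groups by design, fell to 66.0 ± 14.7 CPM (SD, n = 5) in the double knockout against 113 ± 9.44 CPM in Smad4 Vil-KO (SD, n = 4), with an adjusted p of 0.00756 from edgeR's quasi-likelihood test. Smad4 RNA, by contrast, was counted at 54.2 to 92.6 CPM in Smad4 Vil-KO and 38.2 to 114 CPM in the double knockout, and counts over whole genes do not show whether the floxed part was missing. Summed counts of 4 Y-linked genes were 4907, 4745 and 3857 in double-knockout replicates 1, 2 and 5 and 28 or fewer in the other 6 libraries. The 9 genes and the other called retinoid genes were therefore also tested with a term for those 3 libraries and without them. In both settings the genotype difference rests on double-knockout replicates 3 and 4 against Smad4 Vil-KO, so these settings are not separate checks. Marker genes were not followed in either setting. The 7 epithelial markers summed to 12136 to 14730 CPM in every library and none was called, while 10 leukocyte markers summed to 57.3 to 153 CPM in Smad4 Vil-KO and 52.3 to 113 CPM in the double knockout. Sums over 8 fibroblast markers were 29.4 to 46.6 CPM and 37.0 to 85.2 CPM, with none of 6 tested called. Those of 4 endothelial markers were 5.97 to 10.5 CPM over all libraries, with neither of 2 tested called. The 5 smooth muscle markers summed to 0.707 to 3.43 CPM and none passed the filter. Acta2 was at 0.576 to 1.66 CPM in Smad4 Vil-KO and 0 to 0.497 CPM in the double knockout. The other markers of this list overlapped between the genotypes, with the means of Cnn1 and Des lower and those of Myh11 and Tagln higher in the double knockout. Among 5 markers of enteric neurons and glia Elavl4 had 8, 6, 3 and 5 counts in Smad4 Vil-KO against 47, 39, 26, 19 and 20 in the double knockout, through which alone it entered the test, and the glial marker Sox10 was at 0 counts in all 9 libraries. Values for single libraries are listed in the order of their replicate numbers, 1 to 4 and 1 to 5. The labels number the libraries without naming mice, so p-values measure the spread between libraries, and fewer cells of a type cannot be told apart from less RNA per cell.

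Promoter sequence was taken from RefSeq (GRCm38.p6, the assembly known as mm10, which the submitters' processing notes name) for the members listed there, 8 of the 9, in 14 windows of 300 bases, with Aldh1a3 missing. The bases from 130 to 31 before the transcript start at base 251 of the window are shown for Rbp2, the member that rose, and Bco1, whose protein makes a substrate that RBP2 carries. Both genes lie on the plus strand. This start is at base 98490537 of chromosome 9 for Rbp2 and base 117095865 of chromosome 8 for Bco1, which is 4422 and 11 bases inside the GENCODE genes whose positions are given with the values. Motif positions are counted from it, and capitals mark the matches described after them.
Rbp2, chr9:98490407-98490506: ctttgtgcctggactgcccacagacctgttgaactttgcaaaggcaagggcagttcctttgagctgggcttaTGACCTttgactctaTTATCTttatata
Bco1, chr8:117095735-117095834: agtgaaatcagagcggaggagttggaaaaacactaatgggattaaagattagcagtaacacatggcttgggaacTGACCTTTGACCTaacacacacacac
Motifs were searched as exact letters on both strands. AGGTCA, the core motif of nuclear receptors, lay once before Rbp2 (bases -58 to -53) and in 2 copies before Bco1 (-56 to -51 and -49 to -44), each time on the opposite strand. The copies before Bco1 formed a direct repeat with 1 base between, a spacing that several retinoid and lipid receptors bind as dimers. This repeat was in 13 of 32851 windows of all genes (0.0396%), against 16.3% for at least 1 copy of AGGTCA, which was also found once in a window of Rara, after the start. AGATAA, which is bound by factors of the Gata4 family and was held by 11.2% of all windows, lay on the opposite strand 43 to 38 bases before Rbp2. It was also found once before the second of the starts listed for Aldh1a1. A motif of the intestinal factor Cdx2, TTTATG, was found once, before Bco1 (11.9% of all windows held it). Its variant TTTATT was found once, before Dhrs3 (19.6% of all windows). No member's window held a direct repeat of AGGTCA with 5 bases between, the classical spacing of retinoic acid response elements, which was in 3 of all 32851 windows. Such matches describe the letters alone, and nothing was measured of what binds there.

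In the comparison of the genotypes, 3 of the 9 genes were called at an adjusted p under 0.05, against 13.3% of all tested genes. The count fell to 1 (Aldh1a3) without Smad4 Vil-KO replicate 2 or 3 and to 2 (Dhrs3 and Aldh1a3) without replicate 4, and stayed at 3 without any other library. Rbp2 was higher in the double knockout (6.76% of all tested genes were called higher) and Dhrs3 and Aldh1a3 were lower (6.54% were called lower). The libraries of the 2 genotypes did not overlap for these 3 and for Bco1, which was not called, against 17.2% of all tested genes. The median log2 fold change of the 9 was -0.13, beside -0.0006 over all tested genes. The called genes thus sat at different steps: the carrier rose, and the reductase and 1 of the 3 retinal dehydrogenases fell.

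**Figure D1:**
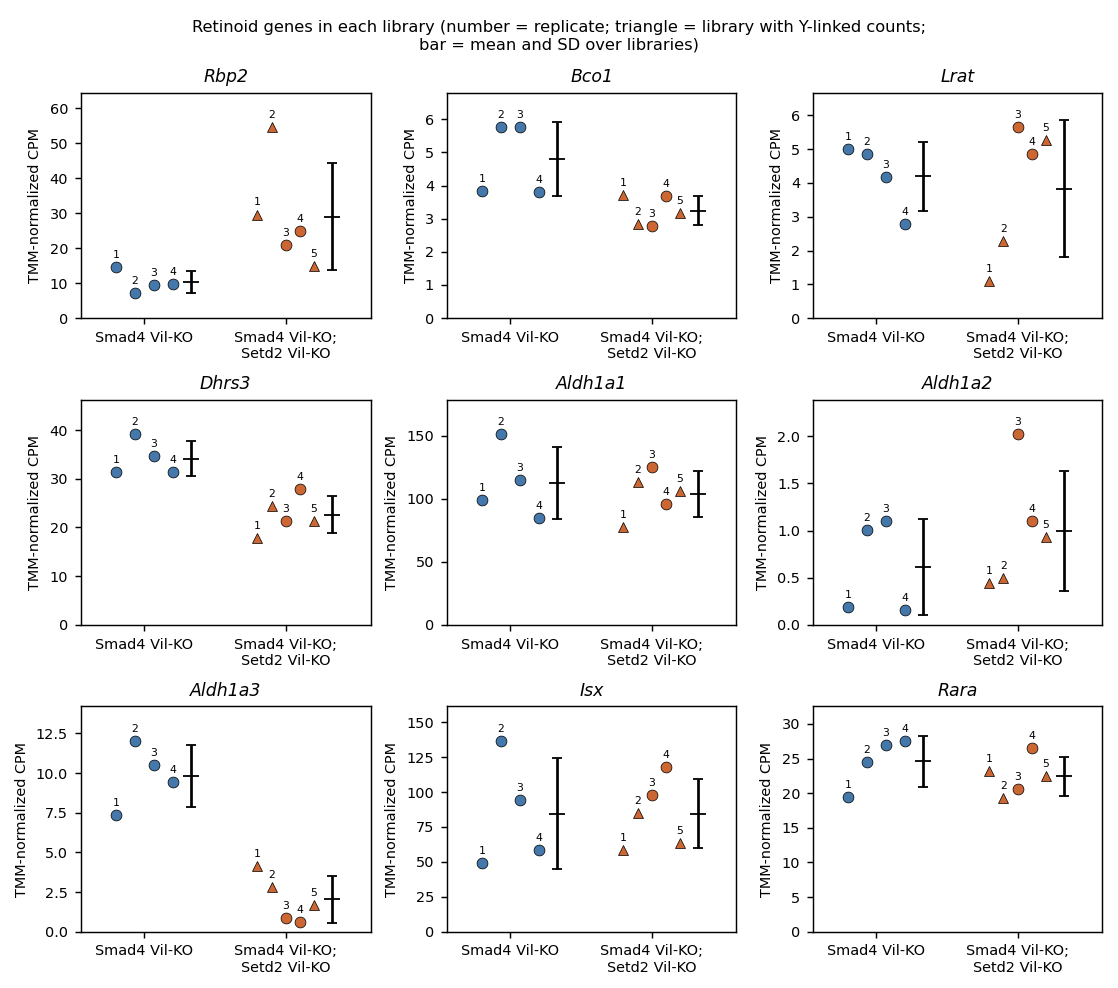
TMM-normalized CPM of the 9 genes in each library, with the replicate number beside each point, triangles for libraries with Y-linked counts, and bars for the mean and SD over 4 and 5 libraries; each panel has its own axis from 0. The points of the genotypes separate for Rbp2, Bco1, Dhrs3 and Aldh1a3, by the least for Rbp2 and Bco1, and mix for the other 5 genes.

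**Figure D2:**
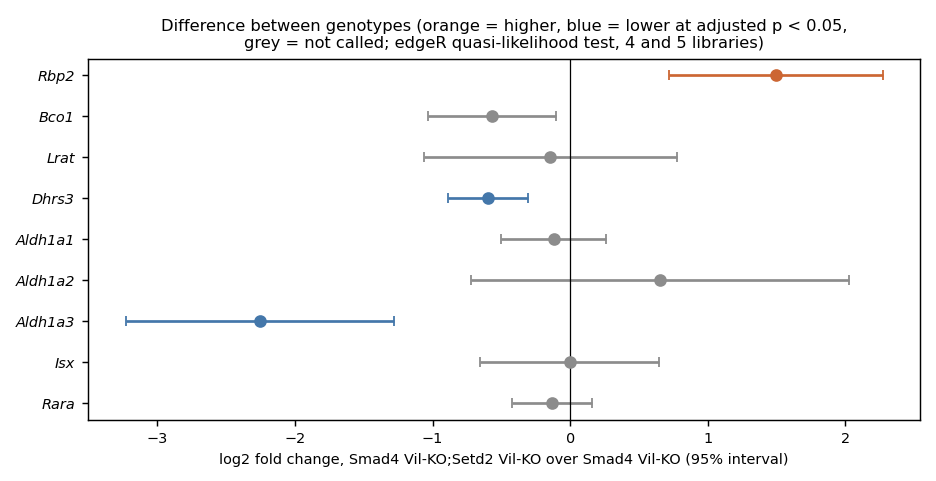
The log2 fold change of each gene, double knockout over Smad4 Vil-KO, with its 95% interval from the edgeR fit on 4 and 5 libraries. Rbp2 lies above 0, Dhrs3 and Aldh1a3 below it, and the intervals of 5 of the genes that were not called cross 0.

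The first step of provitamin A use is the cleavage of β-carotene by BCO1. Bco1 (chr8:117095854-117133720, plus strand, 12 exons) stood at 3.84, 5.75, 5.76 and 3.80 CPM in Smad4 Vil-KO against 3.71, 2.84, 2.79, 3.69 and 3.17 CPM in the double knockout. Every double-knockout library was below every Smad4 Vil-KO library, but the highest of the first and the lowest of the second were 3.71 and 3.80 CPM. Its log2 fold change was -0.57 (95% interval -1.03 to -0.10), and with an adjusted p of 0.101 from edgeR's quasi-likelihood test the gene was not called. Its adjusted p stayed between 0.0764 and 0.262 in all 18 other settings tried. About 1.5% of the 50-base words of its transcripts also occurred in other genes.

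RBP2 is the cellular carrier that presents retinol to LRAT and is known as a product of absorptive cells of the small intestine. Rbp2 (chr9:98486115-98509781, plus strand, 5 exons in its longest model) stood at 14.7, 7.24, 9.32 and 9.83 CPM in Smad4 Vil-KO against 29.6, 54.6, 20.9, 24.8 and 14.8 CPM in the double knockout. The highest value was in double-knockout replicate 2, and the lowest double-knockout library (14.79 CPM) lay just above the highest Smad4 Vil-KO library (14.73 CPM). Rbp2 thus rose 2.82-fold in the fit, to a mean of 29.0 ± 15.3 CPM (SD, n = 5) against 10.3 ± 3.17 CPM in Smad4 Vil-KO (SD, n = 4). This was a log2 fold change of 1.50 (standard error 0.35, 95% interval 0.72 to 2.27) with an adjusted p of 0.0204 from edgeR's quasi-likelihood test. Without Smad4 Vil-KO replicate 2, 3 or 4 the call was lost (adjusted p of 0.0591, 0.0702 and 0.0562), although the log2 fold change stayed at 1.35 to 1.47. A term for the libraries with Y-linked counts gave 1.15 with an adjusted p of 0.112, and in the 6 libraries without such counts 1.16 with an adjusted p of 0.00990, all from edgeR. Rbp2 lies 12.05 Mb from Setd2 on the same chromosome.

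LRAT makes the retinyl esters that are stored or packed into chylomicrons. Lrat (chr3:82892579-82903973, minus strand, 2 exons) stood at 4.996, 4.86, 4.17 and 2.77 CPM in Smad4 Vil-KO against 1.09, 2.27, 5.65, 4.87 and 5.26 CPM in the double knockout. The double knockout held both the 2 lowest and the 2 highest libraries, so the groups overlapped. The log2 fold change was -0.14 (95% interval -1.06 to 0.77, adjusted p of 0.846 from edgeR); the interval spans both directions widely. Its sign turned to 0.10 without double-knockout replicate 1. The value was 0.32 both with the Y-linked term and in the libraries without such counts, not called in either (adjusted p of 0.714 and 0.422 from edgeR).

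DHRS3 reduces retinal to retinol and so withholds it from oxidation, and its gene is known to be induced by retinoic acid. Dhrs3 (chr4:144892827-144928209, plus strand, 7 exons) stood at 31.4, 39.2, 34.6 and 31.4 CPM in Smad4 Vil-KO against 17.9, 24.5, 21.4, 28.0 and 21.3 CPM in the double knockout. All 5 double-knockout libraries were below all 4 Smad4 Vil-KO libraries, with replicate 1 the lowest and replicate 4 the nearest to the other group. The means were 34.2 ± 3.69 CPM in Smad4 Vil-KO (SD, n = 4) and 22.6 ± 3.79 CPM in the double knockout (SD, n = 5). This fall of 33.9% in the fit had a log2 fold change of -0.60 (standard error 0.13, 95% interval -0.89 to -0.31) and an adjusted p of 0.0158 from edgeR's quasi-likelihood test. The call was lost by a small margin without Smad4 Vil-KO replicate 2 (log2 fold change -0.53, adjusted p of 0.0503) or replicate 3 (-0.59, adjusted p of 0.0532). The term for Y-linked counts gave -0.47 with an adjusted p of 0.107, and in the libraries without such counts -0.47 with an adjusted p of 0.0426, both from edgeR.

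The 3 retinal dehydrogenases carry out the step that commits retinal to retinoic acid. Aldh1a1 (chr19:20492715-20643465, plus strand, 16 exons) was the most abundant of them, at 99.0, 152, 115 and 85.1 CPM in Smad4 Vil-KO against 77.7, 113, 125, 96.1 and 106 CPM in the double knockout. The groups overlapped, with the extremes in Smad4 Vil-KO replicate 2 and double-knockout replicate 1. Its log2 fold change was -0.12 (95% interval -0.50 to 0.26, adjusted p of 0.671 from edgeR), which is a fold change between 0.706 and 1.20. Aldh1a1 shared 3.06% of its 50-base words with Aldh1a7, a close paralog, and reads from that part could have been split between them.

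Aldh1a2 (chr9:71215789-71296243, plus strand, 14 exons), the isoform known from mesenchyme and dendritic cells, was close to the detection limit. It had 3, 17, 18 and 2 counts in Smad4 Vil-KO against 7, 7, 29, 14 and 12 counts in the double knockout, which is 0.159 to 2.02 CPM. The groups overlapped, and the highest library was double-knockout replicate 3. A log2 fold change of 0.65 had a 95% interval from -0.72 to 2.03 (adjusted p of 0.507 from edgeR), within the spread between libraries. It came to 1.30 both with the Y-linked term and in the libraries without such counts, and was not called in either (adjusted p of 0.251 and 0.200 from edgeR).

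Aldh1a3 (chr7:66390890-66427517, minus strand, 13 exons) changed the most of the 9 genes. It stood at 7.37, 12.04, 10.5 and 9.43 CPM in Smad4 Vil-KO (115, 203, 171 and 119 counts) against 4.16, 2.84, 0.838, 0.628 and 1.70 CPM in the double knockout (65, 40, 12, 8 and 22 counts). No double-knockout library reached the lowest Smad4 Vil-KO library, and within the double knockout the 3 libraries with Y-linked counts held the 3 highest values. Aldh1a3 fell 4.77-fold in the fit, with means of 9.83 ± 1.96 CPM in Smad4 Vil-KO (SD, n = 4) and 2.03 ± 1.47 CPM in the double knockout (SD, n = 5). Its log2 fold change was -2.25 (standard error 0.44, 95% interval -3.23 to -1.28) with an adjusted p of 0.00951 from edgeR's quasi-likelihood test. It remained called in all 17 other settings in which it was tested, with log2 fold changes from -3.72 to -2.02. The largest of these came with the term for Y-linked counts (-3.72, adjusted p of 0.000842) and in the libraries without such counts (-3.72, adjusted p of 0.000122), both from edgeR. Both values rest on double-knockout replicates 3 and 4, the libraries with 12 and 8 counts. In transcript sequence 1.15% of its 50-base words were shared with other genes.

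Since the dehydrogenases make the same product, their make-up was also compared within each library, as shares of their summed CPM per kilobase of exon. Aldh1a1 took 89.1% to 92.3% in Smad4 Vil-KO and 93.5% to 96.9% in the double knockout. The share of Aldh1a3 was 7.34%, 7.73%, 8.70% and 10.6% in Smad4 Vil-KO against 5.35%, 2.59%, 0.685%, 0.677% and 1.65% in the double knockout. Its mean was 8.58% ± 1.44 (SD, n = 4) against 2.19% ± 1.93 (SD, n = 5), without overlap. Aldh1a2 held 0.362% to 1.87% and 0.924% to 3.38%, which overlapped. Aldh1a1 thus carried at least 89.1% of this sum in every library of both genotypes.

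**Figure D3:**
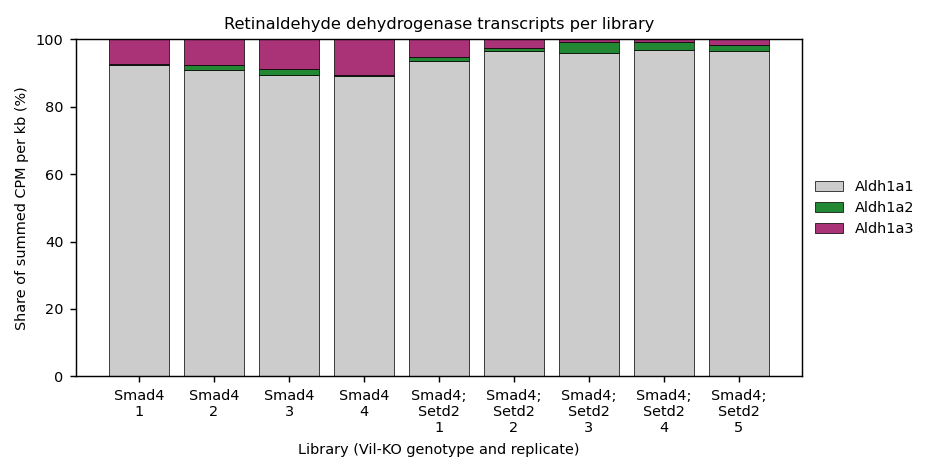
Stacked bars give the share (%) of Aldh1a1, Aldh1a2 and Aldh1a3 in their summed CPM per kilobase in each of the 9 libraries, with the deleted genes and the replicate number under each bar. The Aldh1a3 segment at the top spans 7.34% to 10.6% in Smad4 Vil-KO and 0.677% to 5.35% in the double knockout.

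ISX is the homeobox repressor of Bco1 and of the carotenoid transporter gene Scarb1. Isx (chr8:74873173-74893506, plus strand, 4 exons) stood at 49.5, 137, 94.0 and 58.3 CPM in Smad4 Vil-KO against 58.4, 85.2, 97.6, 118 and 63.8 CPM in the double knockout. Both the lowest and the highest library were of Smad4 Vil-KO. Its means were 84.7 ± 39.7 CPM (SD, n = 4) and 84.6 ± 24.5 CPM (SD, n = 5), with a 95% interval of the log2 fold change from -0.65 to 0.65 and an adjusted p of 0.996 from edgeR. The spread between libraries of 1 genotype was wide, so that changes inside this interval were not detectable.

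RARA is the retinoic acid receptor that pairs with RXR on DNA. Rara (chr11:98927818-98974942, plus strand, 10 exons) stood at 19.4, 24.4, 27.0 and 27.6 CPM in Smad4 Vil-KO against 23.2, 19.2, 20.7, 26.5 and 22.5 CPM in the double knockout. The libraries of both groups covered nearly the same span. The log2 fold change of -0.13 had the narrow 95% interval of -0.42 to 0.16 (adjusted p of 0.520 from edgeR).

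Per kilobase of exon, the order of levels in Smad4 Vil-KO was Isx (47.2 ± 22.2 CPM per kb, SD, n = 4), Aldh1a1 (22.8 ± 5.81), Dhrs3 (11.7 ± 1.26), Rbp2 (10.7 ± 3.30), Rara (5.64 ± 0.852), Aldh1a3 (2.13 ± 0.425), Bco1 (1.88 ± 0.439), Lrat (0.785 ± 0.190) and Aldh1a2 (0.272 ± 0.225). Neighbours whose libraries overlapped in this order were Isx and Aldh1a1, Dhrs3 and Rbp2, and Aldh1a3 and Bco1. In the double knockout Rbp2 (30.1 ± 15.9 CPM per kb, SD, n = 5) stood second after Isx (47.2 ± 13.7), ahead of Aldh1a1 (21.0 ± 3.65) and Dhrs3 (7.72 ± 1.29), and the libraries of Rbp2 overlapped those of both Isx and Aldh1a1. Aldh1a3 (0.441 ± 0.319) moved from the sixth place to the last, level with Aldh1a2 (0.441 ± 0.281). Exon lengths were those of all annotated transcripts joined, so a gene that uses a short transcript is placed too low.

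Low values coincided in 1 library. Of the 9 genes, 5 (Lrat, Dhrs3, Aldh1a1, Aldh1a2 and Isx) had their lowest double-knockout value in replicate 1. Rbp2 and Aldh1a3 instead had their lowest values in replicates 5 and 4. This pattern was noticed after the values were seen and no test was made of it.

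The other genes of the retinoid pathway were taken from 8 lists by role, 57 genes in all, of which 56 were in the table and 36 passed the filter. Of these 36, 4 were called (11.1%, against 13.3% of all tested genes), 2 higher (Mttp and Gata4, the latter tested only because of its double-knockout counts) and 2 lower, and the median log2 fold change was 0.04. The count fell to 2 without Smad4 Vil-KO replicate 1, 3 or 4 or without double-knockout replicate 1 or 4. Their share was thus close to that of the background.

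Among 9 genes of uptake and release, 1 of 6 tested was called. Mttp, which loads lipid onto the apoB of chylomicrons, in which retinyl esters leave the cell, stood at 2.37, 5.46, 4.72 and 5.07 CPM in Smad4 Vil-KO against 115, 123, 91.3, 150 and 30.0 CPM in the double knockout. Its log2 fold change was 4.53 (standard error 0.45, adjusted p of 0.000285 from edgeR), and it was called in all 18 other settings. Dgat1, which esterifies diglyceride and retinol, had a log2 fold change of -0.18 and the carotenoid transporter gene Scarb1 -0.28, neither called. The mitochondrial carotenoid oxygenase Bco2, which cleaves off centre where BCO1 cleaves in the middle, had -0.51 (95% interval -0.90 to -0.13, adjusted p of 0.0742 from edgeR), and its libraries did not overlap between the genotypes.

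Of 14 tested retinol and retinal oxidoreductases 1 was called. Adh1, the cytosolic alcohol dehydrogenase that oxidizes ethanol and retinol, was the most abundant of them and fell, with means of 1102 ± 226 CPM in Smad4 Vil-KO (SD, n = 4) and 515 ± 181 CPM in the double knockout (SD, n = 5). No double-knockout library (239 to 729 CPM) reached the Smad4 Vil-KO libraries (798 to 1328 CPM). This log2 fold change was -1.10 (standard error 0.26, adjusted p of 0.0222 from edgeR), and the call was lost without Smad4 Vil-KO replicate 1, 3 or 4 (adjusted p of 0.0662, 0.0611 and 0.0572), without double-knockout replicate 4 (0.0519), or with the term for Y-linked counts (0.108). Adh1 was called among the 6 libraries without Y-linked counts, with a log2 fold change of -1.03 and an adjusted p of 0.00702 from edgeR. The next most abundant by the mean over all 9 libraries, Rdh16, Dhrs9 and Dhrs4, had log2 fold changes of -0.35, 0.08 and -0.10 and were not called. Rdh10, the main retinol dehydrogenase of the embryo, was at 30.2 and 30.3 CPM in the 2 genotypes, a gene named here after its values were seen.

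The other lists of binding proteins, dehydrogenases, clearing enzymes, receptors and response genes held 1 called gene. Fabp5, which codes for a fatty acid binding protein that also carries retinoic acid, was not called (log2 fold change 0.11), nor was Aldh1a7 (-0.46, 95% interval -0.80 to -0.11, adjusted p of 0.0796 from edgeR). The genes of the clearing enzymes Cyp26a1, Cyp26b1 and Cyp26c1 all failed the filter, with a sum of 0.209 to 0.448 CPM in the 9 libraries. Of the other receptors, Rxra had a log2 fold change of 0.24 (95% interval 0.08 to 0.41, adjusted p of 0.0587 from edgeR) and Rarg -0.36, neither called. Among 5 tested retinoic acid response genes Rai14 was called lower (-0.34, adjusted p of 0.0449 from edgeR), a call that was lost in 14 of 18 other settings, each of them keeping the sign. Nrip1 (0.26), Tgm2 (0.56) and Rarres2 (1.12) were not called.

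Of 6 intestinal transcription factors listed as acting on Isx, 1 was called. Gata4, which is known to mark the proximal small intestine, stood at 0.320, 0.178, 0.307 and 0.159 CPM in Smad4 Vil-KO against 0.896, 0.497, 1.47, 1.96 and 0.929 CPM in the double knockout. These were 5, 3, 5 and 2 counts against 14, 7, 21, 25 and 12, so Gata4 entered the test only through the double knockout, where it was high. All 5 double-knockout libraries were above the others, and their log2 fold change came to 2.20 (standard error 0.47, adjusted p of 0.0144 from edgeR). It failed the filter without double-knockout replicate 1, 3, 4 or 5. The intestinal factors Hnf4a (0.05), Cdx2 (0.04) and Cdx1 (-0.32) were not called.

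**Figure D4:**
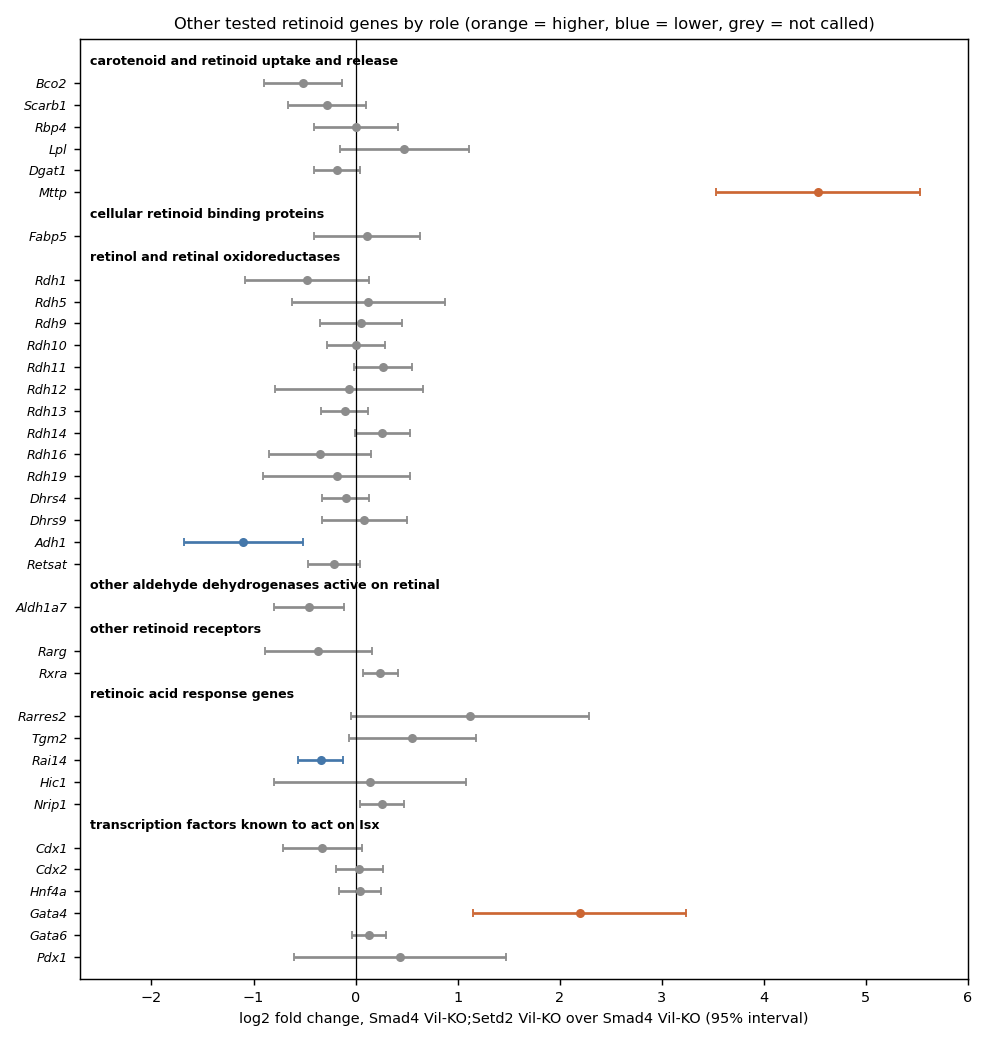
The log2 fold change, double knockout over Smad4 Vil-KO, of 35 of the 36 other tested retinoid genes with 95% intervals, grouped by role, with colour for the 4 that were called. Mttp at 4.53 stands far to the right, Gata4 at 2.20 follows, and Adh1 at -1.10 is the lowest.

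Because Rbp2 and Mttp are known as products of small intestinal enterocytes, they were set beside marker lists of absorptive cells. Of 8 tested markers of small intestinal enterocytes 5 were called higher in the double knockout (Sis, Fabp6, Anpep, Treh and Mgam), against 6.76% of all tested genes, and the list summed to 1138 to 1360 CPM in Smad4 Vil-KO and 1692 to 2435 CPM in the double knockout. The lactase gene Lct, the ninth, failed the filter. Sucrase-isomaltase (Sis) was at 0.448 to 7.42 CPM and 85.2 to 278 CPM, and the bile acid binding protein gene Fabp6 at 4.42 to 4.69 CPM and 5.88 to 61.7 CPM. Anpep overlapped between the genotypes, with double-knockout replicates 3 and 5 at 5.44 and 3.72 CPM against 3.26 to 5.51 CPM in Smad4 Vil-KO. Sis (7, 125, 41 and 9 counts in Smad4 Vil-KO) and the trehalase gene Treh (11, 22, 17 and 17) passed the filter only with the double-knockout libraries, where they were high, so the count of 5 includes 2 genes that entered the test that way. The list was also chosen with earlier results of these data known, so its share beside that of all tested genes is a description only. Of 6 colonocyte markers only the sodium-proton exchanger gene Slc9a3 was called, with a log2 fold change of 1.11 (adjusted p of 0.0188 from edgeR). The other 5 had log2 fold changes of -0.46 (Slc26a3), -0.43 (Car4), -0.31 (Aqp8), -0.15 (Ceacam1) and 0.07 (Car1), the median of the list was -0.23, and the sums were 7334 to 9134 CPM and 5127 to 9564 CPM. The part of these cells' genes in the rise of Rbp2 was not tested.

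Within the double knockout, Rbp2 fell in the order of replicates 2, 1, 4, 3 and 5. Double-knockout replicate 5 was lowest for Rbp2, Mttp and 6 of the 8 tested enterocyte markers. The exceptions were Fabp2, lowest in replicate 1 (164 CPM, against 273 CPM in replicate 5), and Slc5a1, lowest in replicate 3 (198 CPM, against 214 CPM). Of Mttp and these markers, only Alpi had the same full order as Rbp2, while Mttp fell in the order of replicates 4, 2, 1, 3 and 5. The share of all genes that were lowest in replicate 5 was not counted. Replicate 5 still had 30.0 CPM of Mttp against at most 5.46 CPM in Smad4 Vil-KO, whereas its Rbp2 was level with the highest Smad4 Vil-KO library.

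**Figure D5:**
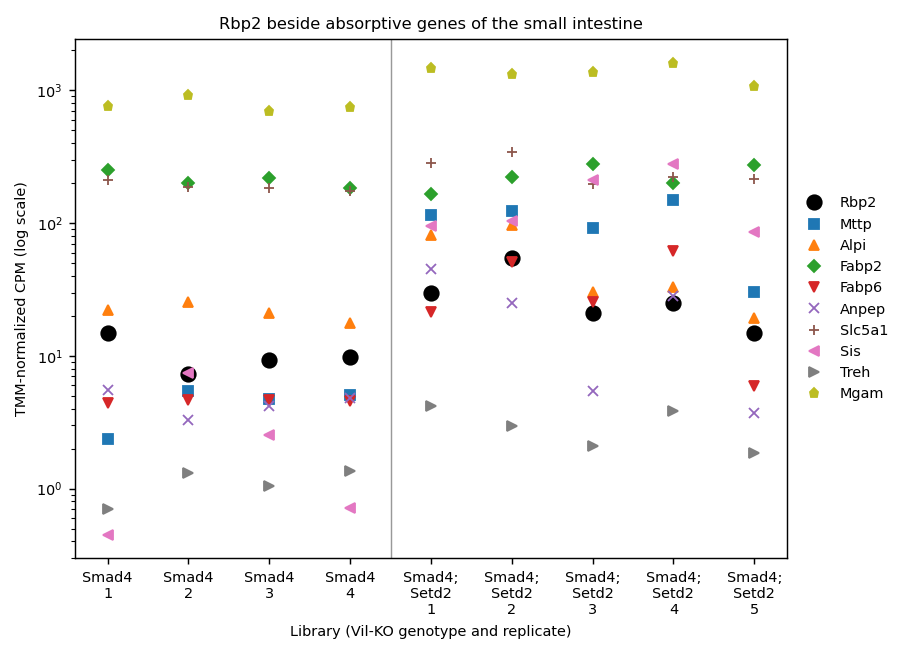
TMM-normalized CPM (log axis) of Rbp2 (large black circles), Mttp and the 8 tested enterocyte markers in the 9 libraries, with the deleted genes and the replicate number under each and a line between the genotypes. Sis and Mttp separate the genotypes most widely, Rbp2 stands at 7.24 to 14.7 CPM on the left and 14.8 to 54.6 CPM on the right, and double-knockout replicate 5 is lowest of its genotype for Rbp2, Mttp and 6 of the 8 markers.

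For each called gene, the genes of at least 10 CPM whose log2 CPM followed it most closely over the 9 libraries were also read off, as a description over libraries that share the difference between genotypes. For Rbp2 these were Adck3 (Pearson r of 0.972), Myzap (0.970) and Cobl (0.967). Dhrs3 was followed most closely by the mucin gene Muc13 (0.943), Inpp5b (0.937) and Gramd3 (0.931), and Aldh1a3 by the plexin gene Plxnb1 (0.986), Mrpl3 (0.981) and Fer1l4 (0.979). None of these belongs to the retinoid lists.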

How the data were processed

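RNA-seq of colon IECs was analysed in 4 Smad4 Vil-KO libraries and in 5 of the double knockout, grouped by the genotype in the labels. The authors deposited 1 file of unnormalized whole-number counts, with a row for each gene symbol. HISAT2 2.0 and mm10 are named in the submitters' processing notes. The counting program, its annotation and whether it used strand are not given in the sources used here, nor is a tool for differential expression. Of the symbols, 27 had been turned into dates and were tested without a name. No exon of the 9 genes overlaps an exon of another gene in GENCODE M21 (GRCm38), which also gave positions, exons and lengths.

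Genes were filtered with filterByExpr of edgeR 4.0.16 (R 4.3.3), scaled with TMM and tested on all 9 libraries with edgeR's quasi-likelihood test without covariates, with Benjamini-Hochberg adjustment over all 14593 genes. Standard errors were the size of the log2 fold change divided by the square root of F, intervals are 95%, and correlations used log2 CPM with a prior count of 2. The biological coefficient of variation was 21.2%. Precision is limited by the 9 libraries, and the p-values and intervals rest on the spread between them as well as on counting error.

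Named were all 9 genes, the deleted genes, every called gene of the other retinoid lists with up to 3 others per list by mean CPM, called marker genes, and the 3 genes most like each called gene. 1 gene of these lists is not reported here. The genes and lists were chosen with earlier results of these data known. Alternatives were DESeq2 1.42.0, limma 3.58.1 voom with quality weights, other size factors, other filters, each library left out, a term for or removal of libraries with Y-linked counts, other thresholds, and the replicate number as a block. Libraries with the same number deviated from their group means with correlations of -0.0955, -0.104, 0.0196 and 0.0878, so the numbers were not taken to pair them.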

Additional observations from a re-analysis of the deposited data

How the results depend on the processing

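The number of the 9 retinoid genes called was 3 of 9 in most settings, and 2 where each library had to reach 10 counts, which left Aldh1a3 untested. It was 1 when libraries with Y-linked counts had a term (Aldh1a3) and 1 at an adjusted p under 0.01, and lay between 1 and 3 with single libraries left out, the lowest without Smad4 Vil-KO replicate 2 or 3. The other retinoid genes gave 4 calls, 2 to 5 with single libraries left out, 7 with DESeq2, 7 with limma-voom, 9 in the libraries without Y-linked counts, 1 at an adjusted p under 0.01 and 7 at one under 0.1. Over all genes the 1941 calls became 847 to 2696 with single libraries left out (1018, 1204, 847 and 1183 without Smad4 Vil-KO replicates 1 to 4, and 1273 without double-knockout replicate 4), 2792 with DESeq2, 2924 with limma-voom, 1285 with the Y-linked term, 2930 without those libraries, 572 at an adjusted p under 0.01 and 3107 at one under 0.1. The causes were not tested, except that a stricter or looser threshold lowers or raises such counts by construction.

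Rbp2, Dhrs3 and Aldh1a3 kept their direction in every setting in which they were tested. Signs turned only for genes that were never called. Lrat reached 0.32 with the Y-linked term and 0.32 without those libraries, and -0.32 to 0.10 with single libraries left out. Aldh1a1 ranged from -0.24 to 0.052 (without Smad4 Vil-KO replicate 2). Isx gave 0.0077 with DESeq2, 0.15 with limma-voom, 0.0064 with DESeq2's size factors, 0.023 by library size alone, 0.0078 with at least 10 counts, 0.35 with the Y-linked term, 0.35 without those libraries, 0.096 in replicates 1 to 4, and -0.18 to 0.33 with single libraries left out. Smad4 gave -0.18 with limma-voom, -0.71 with the Y-linked term, -0.70 without those libraries, -0.011 in replicates 1 to 4, and -0.11 to 0.37 with single libraries left out. The libraries numbered 1 to 4 without a block, added after the data were seen, are the same 8 as those without double-knockout replicate 5.

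With the replicate block in replicates 1 to 4, 3 of the 9 genes, 5 other retinoid genes and 1581 of all genes were called, against 3, 3 and 2696 in the same libraries without it. Isx was at 0.16 and Smad4 at -0.13 with the block. The labels give no pairing of the libraries beyond a shared number, and whether they are paired was not settled.

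Aldh1a2 (2 to 29 counts), Lrat and Isx have wide intervals from the spread between libraries. All 3 libraries with Y-linked counts are double knockout.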
